A study of Mus musculus with 2 samples.

Results

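The genes of the cytosolic ribosomal proteins were compared between cultured marrow cells of Cpdm and wildtype mice on Affymetrix arrays. Members were the probe sets annotated to exactly 1 gene whose symbol starts with Rpl or Rps and a digit, or is Rplp0, Rplp1, Rplp2 or Rpsa. Kinases of the Rps6k family, pseudogenes and relatives whose symbol ends in l were left out. The rule found 46 of the 18193 genes with a 1-gene probe set, and 100 of 34945 such probe sets. Of these genes, 24 carry large subunit symbols and 22 small subunit symbols, and 43 encode core ribosomal proteins. The other 3 are Rpl7l1 and Rpl22l1, which are paralogues of ribosomal proteins, and Rps19bp1, which encodes a protein that binds one.

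Each genotype was represented by 1 array of unsorted bone marrow cells. Cpdm is the chronic proliferative dermatitis mutant, a spontaneous line that lacks working SHARPIN, which takes part in attaching linear ubiquitin chains. The other array came from wildtype mice. Both cultures were kept for 10 days in 10 mM β-glycerophosphate plus ascorbic acid at 50 µg/ml, supplements that drive stromal cells towards mineralising osteoblasts, and received no other treatment. The sources used here do not give the age or number of the mice. Since no array was repeated, there is no replicate error and no test, and every value describes these 2 arrays.

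Ribosomal proteins form the protein part of the small and large ribosomal subunits, around ribosomal RNA made in the nucleolus by RNA polymerase I. Their messenger RNAs are among the most abundant of a cell and have short pyrimidine stretches at the 5′ end, called TOP motifs, through which mTORC1 signalling controls their translation. Cells that secrete much matrix, such as osteoblasts, and cells that divide depend on a large supply of ribosomes.

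The ribosomal protein genes read near equal in both cultures. Of the 46 genes, 45 were measured, meaning a signal at or above a floor set at the 40th percentile of an array (18.5 in Cpdm, 18.7 in wildtype), and all 45 were above it in both arrays. None of the 45 was at least 2-fold higher or lower in Cpdm, a size reached by 5.84% and 5.98% of the 14055 measured genes. At 1.5-fold, 2 members were lower and 0 were higher, where 13.5% and 15.7% of all measured genes passed. The median log2 ratio of Cpdm over wildtype was -0.05 (range -0.82 to 0.38), beside 0.03 for all measured genes, and the member median stands for a wildtype signal 1.03-fold that of Cpdm. The member without a measured value was Rps16, whose only 1-gene probe set read 0.939 and 0.562. Probe sets that name Rps16 together with other genes read 3571 in Cpdm against 3882 in wildtype and 3311 against 3268.

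Most members lay slightly below 0 with the deposited scaling. The log2 ratio was below 0 for 33 of 45 members, beside 47.6% of all measured genes, but quantile normalization of the 2 arrays gave 20 below and 25 above. Median scaling gave 28 below 0 and spike-in scaling 35, so of these scalings only quantile normalization put most members above 0. After quantile normalization the member median was 0.02 and that of all measured genes 0.04. The direction of these small ratios therefore depends on whether that scaling is used. Log2 ratios of 18 probe sets for spiked-in control transcripts, which have no mouse counterpart, were 0.01 ± 0.11 (SD, n = 18 probe sets) and ran from -0.22 to 0.20. The ratios of 39 of the 45 members lay within that range. The 6 outside it were Rpl14, Rps6, Rps3a1 and Rpl11 below and Rps25 and Rps19bp1 above.

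**Figure D1:**
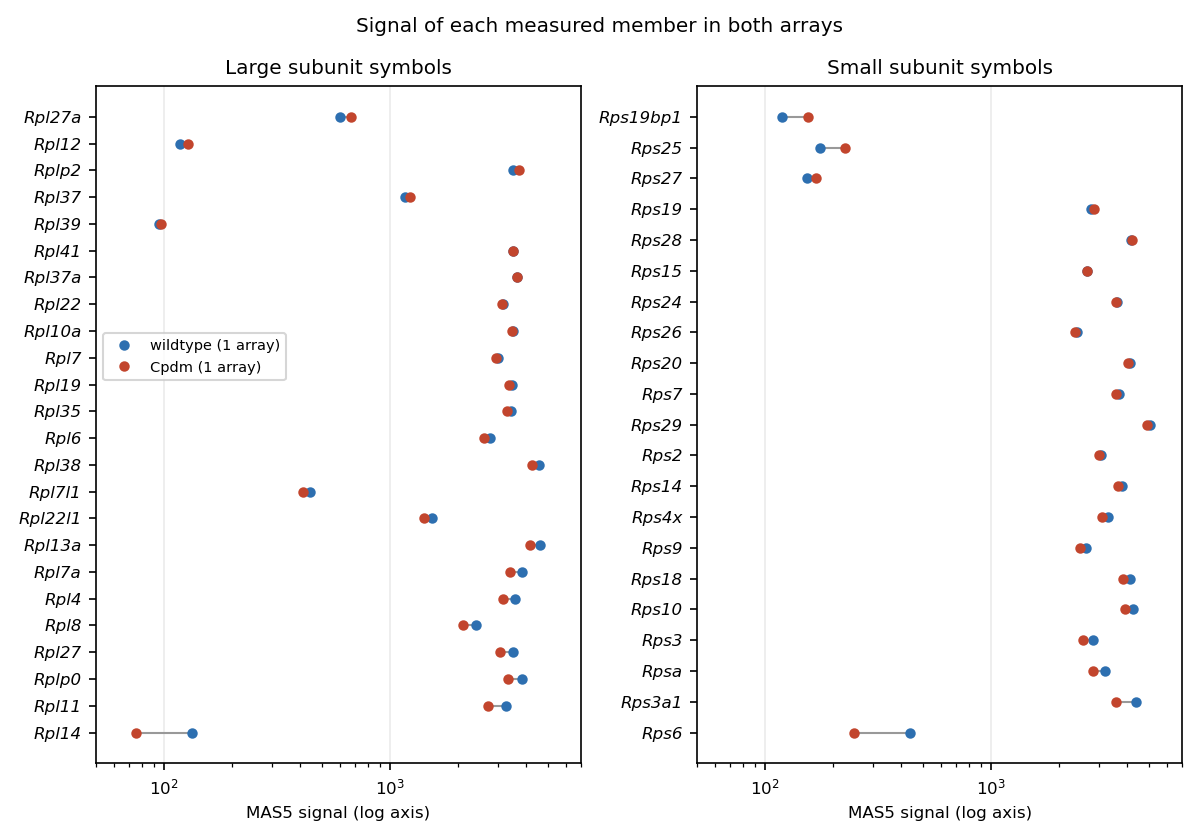
Signal of the 45 measured members in the Cpdm array (red) and the wildtype array (blue) on a log axis, by subunit symbol and in order of their ratio; each point is 1 array. The pairs overlap or nearly touch for most genes, and Rpl14 and Rps6 show the widest gaps.

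The members sat at the top of the signal scale. Signals in Cpdm ran from 75.4 to 4918 with a median of 3059, and in wildtype from 94.8 to 5055 with a median of 3256. In each array 36 of the 45 members read at least 1000, and members made up 30 of the 100 genes with the highest mean signal. These 36 probe sets ranked at percentile 97.7 or above in Cpdm and 97.5 or above in wildtype. The highest signal of any probe set was 5156, and array signals can be compressed near the top of the scale, an effect that was not tested here. Signals of different probe sets depend on their sequences and do not rank genes by abundance.

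The spread among the members was smaller at high signal. The 36 members at 1000 or above had a robust SD of 0.08 in log2 ratio and ran from -0.28 to 0.09, with 30 below 0 (17 after quantile normalization). The 9 members under 1000 had a robust SD of 0.33 and ran from -0.82 to 0.38, with 3 below 0 by either scaling. Among the 708 other genes at 1000 or above the robust SD was 0.42, and 21 were at least 2-fold higher and 27 at least 2-fold lower. With the deposited scaling 319 of these 708 lay below 0. At or above 2255, the lower quartile of the members, the 34 members had a robust SD of 0.08 and the 126 other genes one of 0.22. There 29 of the 34 members lay below 0, beside 55% of all 160 genes at that signal, and after quantile normalization 16 of the 34 did. None of the 34 members passed 1.5-fold in either direction, beside 3.75% lower and 2.5% higher of the 160 genes, of which 1.88% were at least 2-fold lower.

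**Figure D2:**
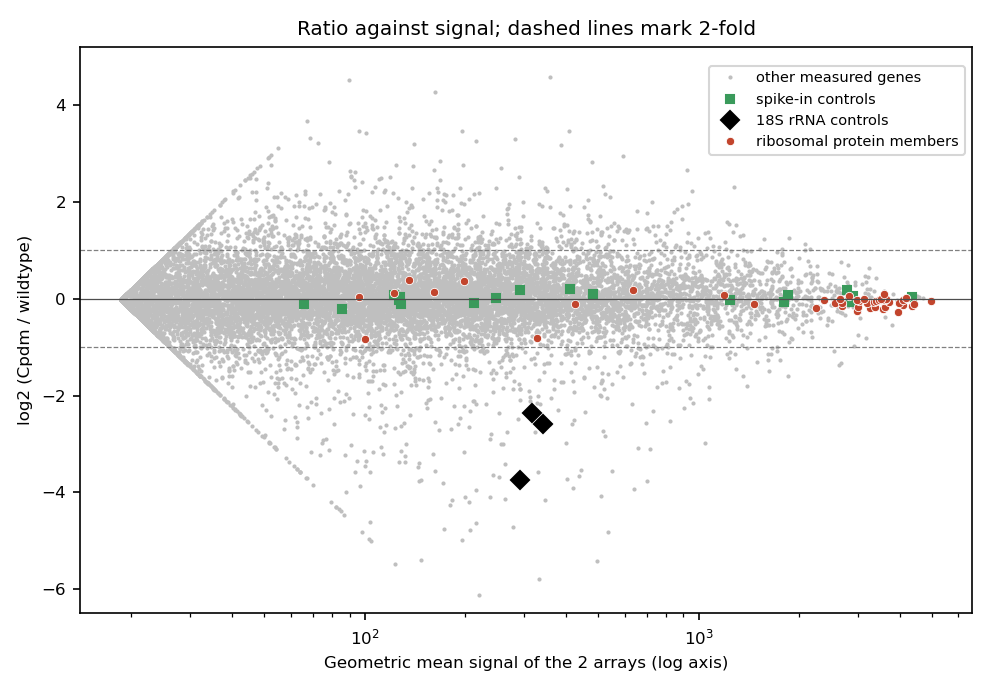
Log2 ratio of Cpdm over wildtype against the geometric mean signal (log axis) for other measured genes (grey), the 45 members (red), 18 spike-ins (green) and 3 controls for 18S ribosomal RNA (black). The members crowd along 0 at the right end, while the 18S controls lie between -3.75 and -2.37.

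The controls for ribosomal RNA itself differed strongly between the same arrays. The 18S ribosomal RNA is the RNA of the small subunit and has no poly-A tail, so the poly-A priming of this labelling method is not meant to copy it. Its 5′ control read 79.4 in Cpdm against 1069 in wildtype, its middle control 140 against 720 and its 3′ control 140 against 838. The wildtype signals were thus between 5.16-fold and 13.5-fold higher. The median log2 ratio of the 3 controls was -2.59, which is 2.54 below the member median, and it stayed between -2.60 and -2.46 under the other scalings and with a pseudocount. No small subunit member came near these values, and their lowest log2 ratio was -0.82. The signal of the actin control near its 3′ end over that near its 5′ end was 1.92 in Cpdm and 1.61 in wildtype, and for GAPDH 0.836 and 0.721. The cause of the 18S difference was not tested.

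Rpl14 and Rps6 were the members past 1.5-fold. Rpl14, a large subunit protein, read 75.4 in Cpdm against 133 in wildtype, which is 56.5% of wildtype. Rps6, the small subunit protein phosphorylated downstream of mTORC1, read 247 against 435, which is 56.7%. Both values came from weak probe sets, and each gene also has brighter probe sets that name a pseudogene beside it. For Rpl14 these 5 brighter probe sets all lay below 0, from 1652 against 2419 (log2 ratio -0.55) to 2891 against 3105 (log2 ratio -0.10). For Rps6 the 3 brightest read 3446 against 3559, 3485 against 3406 and 3223 against 3259, with log2 ratios of -0.05, 0.03 and -0.02. Rpl14 was lower in Cpdm by each of its 6 probe sets, also after quantile normalization, whereas the Rps6 value was not shared by its bright probe sets.

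The next lowest members all had bright probe sets. Rps3a1, a small subunit protein, read 3588 against 4364, a log2 ratio of -0.28. Rpl11, which joins Rpl5 and 5S ribosomal RNA in the particle that can bind Mdm2 when ribosome assembly fails, read 2723 against 3256, a log2 ratio of -0.26. Rpl5, seen through probe sets that name a pseudogene too, read 3728 against 3669 by the brightest, a log2 ratio of 0.02. Rpl27 read 3059 against 3499 and Rpl8 2112 against 2409, both large subunit proteins with log2 ratios of -0.19. Rpsa, the small subunit protein also known as a laminin receptor, read 2819 against 3194, a log2 ratio of -0.18.

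At the other end, 12 members lay above 0 (25 after quantile normalization), beside 52.4% of all measured genes with the deposited scaling. Of the 12, 6 had signals under 1000 and 6 of at least 1000, and the 5 highest ratios all came from the former. Rps19bp1, whose product binds Rps19, read 155 against 119, a log2 ratio of 0.38. Rps25, a small subunit protein used in internal initiation, read 226 against 174, a log2 ratio of 0.37, but its brighter probe set, shared with 2 predicted genes, read 2573 against 2533. Rpl27a read 675 against 599, and Rps27, the zinc finger protein of the small subunit, 168 against 153. Their bright shared probe sets gave log2 ratios of -0.07 and -0.03. Rpl12, a protein at the base of the stalk, read 128 against 118, while its bright shared probe sets gave -0.10 and -0.24. Rpl39, a small protein of the exit tunnel, read 97.2 against 94.8 by its 1-gene probe set and 3439 against 3524 by the shared one. The ratios of the bright shared probe sets of Rps27, Rpl27a and Rpl39 turned to 0.03 after quantile normalization, so their sign is not settled. Rpl37, at 1230 against 1160, and Rps19, at 2866 against 2775, were above 0 with signals over 1000, at log2 ratios of 0.08 and 0.05. Rps19 is the gene most often mutated in Diamond-Blackfan anaemia.

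The stalk proteins, which recruit the GTPase factors of translation to the large subunit, showed no common direction. Rplp0, the stalk base, read 3317 in Cpdm against 3847 in wildtype, a log2 ratio of -0.21. Rplp2, one of the acidic tip proteins, read 3714 against 3494, a log2 ratio of 0.09. Rplp1, its partner at the tip, had no 1-gene probe set and read 3782 against 3821 by a shared one. All 3 ratios lay within the range of the spike-ins, and that of Rplp1 turned to 0.08 after quantile normalization.

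Members with other known roles were also near equal. Rpl38, a large subunit protein needed for translation of some Hox messages and for skeletal patterning in mice, read 4273 against 4588, a log2 ratio of -0.10. Rpl22, a protein with a role in lymphocyte development, read 3126 against 3149 by its brightest probe set. Its other probe sets differed, at 2336 against 2190 and 422 against 534, with log2 ratios of 0.09 and -0.34. The paralogue Rpl22l1 read 1409 against 1529. Rpl41, the smallest ribosomal protein, read 3511 in both arrays. The probe set with the highest signal of all members was that of Rps29, at 4918 against 5055, followed by Rpl38, Rpl13a at 4146 against 4612, Rps28 at 4212 against 4169, Rps20 at 4054 against 4135 and Rps10 at 3924 against 4266. Log2 ratios of these 6 ran from -0.15 for Rpl13a to 0.01 for Rps28.

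The 5′ ends of some of these genes are shown because the TOP motif lies at the transcription start. Members differed in whether a pyrimidine run was found near the annotated start. Below are the 4 members with the lowest ratios, the 2 stalk members, the core member with the highest ratio, Rps25, and the member nearest to 0, Rpl41. Each line holds the 15 bases before and the 15 bases from the start annotated by RefSeq in GRCm38.p6, read 5′ to 3′ on the gene's strand. Capitals mark a run of a C and at least 5 more C or T whose first base lies within 10 bases of the start.
Rpl14: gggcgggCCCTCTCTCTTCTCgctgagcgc
Rps6: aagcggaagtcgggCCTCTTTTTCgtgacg
Rps3a1: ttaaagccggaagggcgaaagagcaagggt
Rpl11: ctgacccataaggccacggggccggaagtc
Rplp0: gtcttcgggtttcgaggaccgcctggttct
Rplp2: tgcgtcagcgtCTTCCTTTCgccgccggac
Rps25: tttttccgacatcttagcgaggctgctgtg
Rpl41: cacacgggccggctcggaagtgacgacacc
The windows lie at chr9:120571502-120571531 on the plus strand for Rpl14, chr4:86857353-86857382 on the minus strand for Rps6 and chr3:86142654-86142683 on the minus strand for Rps3a1. Those of Rpl11 and Rplp0 are chr4:136053379-136053408 on the minus strand and chr5:115559452-115559481 on the plus strand. Those of Rplp2, Rps25 and Rpl41 are chr7:141447636-141447665 on the plus strand, chr9:44407699-44407728 on the plus strand and chr10:128549154-128549183 on the minus strand.

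Such a run near the annotated start was found in 22 of the 41 members with a promoter sequence (53.7%) and in 21.1% of the 27025 genes in the RefSeq promoter set. The annotated start can differ from the base where most transcripts begin, so a window without capitals says only that these letters are not there. The 22 measured members with the run had a median log2 ratio of -0.05 and the 18 without it one of -0.06. Of the 300 bases around the start, CCGGAAG on either strand, a letter sequence of ETS factor sites, was held by 19 members (46.3%) and 9.93% of genes. AAGATGG on either strand, found in YY1 sites, was held by 8 members (19.5%) and 7.28% of genes, and GGGCGG on either strand, found in SP1 sites, by 25 (61.0%) and 38.2%. TATAAA on either strand, the TATA box, was held by 6 members (14.6%) and 15.7% of genes. A CCGGAAG on the other strand reads on the gene's strand as letters that begin with pyrimidines and can overlap a run.

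Large and small subunit members had similar medians. The 22 measured core members of the large subunit had a median log2 ratio of -0.05, with 16 below 0 (10 after quantile normalization). The 20 of the small subunit had one of -0.04, with 15 below 0 (8 after it). The share below 0 over all measured genes was 47.6% with the deposited scaling. Each subunit held 1 of the 2 members past 1.5-fold. Of the ribosomal proteins linked to Diamond-Blackfan anaemia, an inherited failure of red cell production, 12 were measured, with 9 below 0 (3 after quantile normalization) and a range from -0.26 for Rpl11 to 0.13 for Rps27.

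Different probe sets of a member gave ratios that were close in size but often differed in sign. In both arrays 91 of the 100 member probe sets exceeded the floor. None of the 91 passed 2-fold in either direction, where 5.07% of such 1-gene probe sets were higher and 5.66% lower. At 1.5-fold 1 was higher and 3 were lower, where 14.4% and 13.3% of 1-gene probe sets passed. Below 0 lay 67 of the 91 (49 after quantile normalization), beside 48.8% of 1-gene probe sets. For the 20 members with several such probe sets the median gap between the highest and lowest log2 ratio was 0.15, beside 0.46 for 5230 other genes. In 10 of the 20 members, and in 2189 of the 5230 other genes, the probe sets lay on both sides of 0. The robust SD of the ratios was 0.08 among 68 member probe sets at 1000 or above and 0.25 among 23 under 1000.

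The largest gaps were those of Rps24, Rps6, Rpl13a and Rps10. Rps24, a small subunit protein, had 4 bright probe sets between -0.06 and 0.22 and a weak one at 143 against 78.0, a log2 ratio of 0.88 and the only member probe set at least 1.5-fold higher. Rpl13a, the large subunit protein that can leave the ribosome to silence inflammatory messages, was below 0 by all 4 of its 1-gene probe sets, of which 1 turned to 0.02 after quantile normalization. These read 4146 against 4612, 2709 against 2749, 2132 against 2807 and 1210 against 1873, with log2 ratios of -0.15, -0.02, -0.40 and -0.63. Rps10 read 2501 against 1980 by one probe set, a log2 ratio of 0.34, and lay between -0.20 and -0.08 by 4 others.

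**Figure D3:**
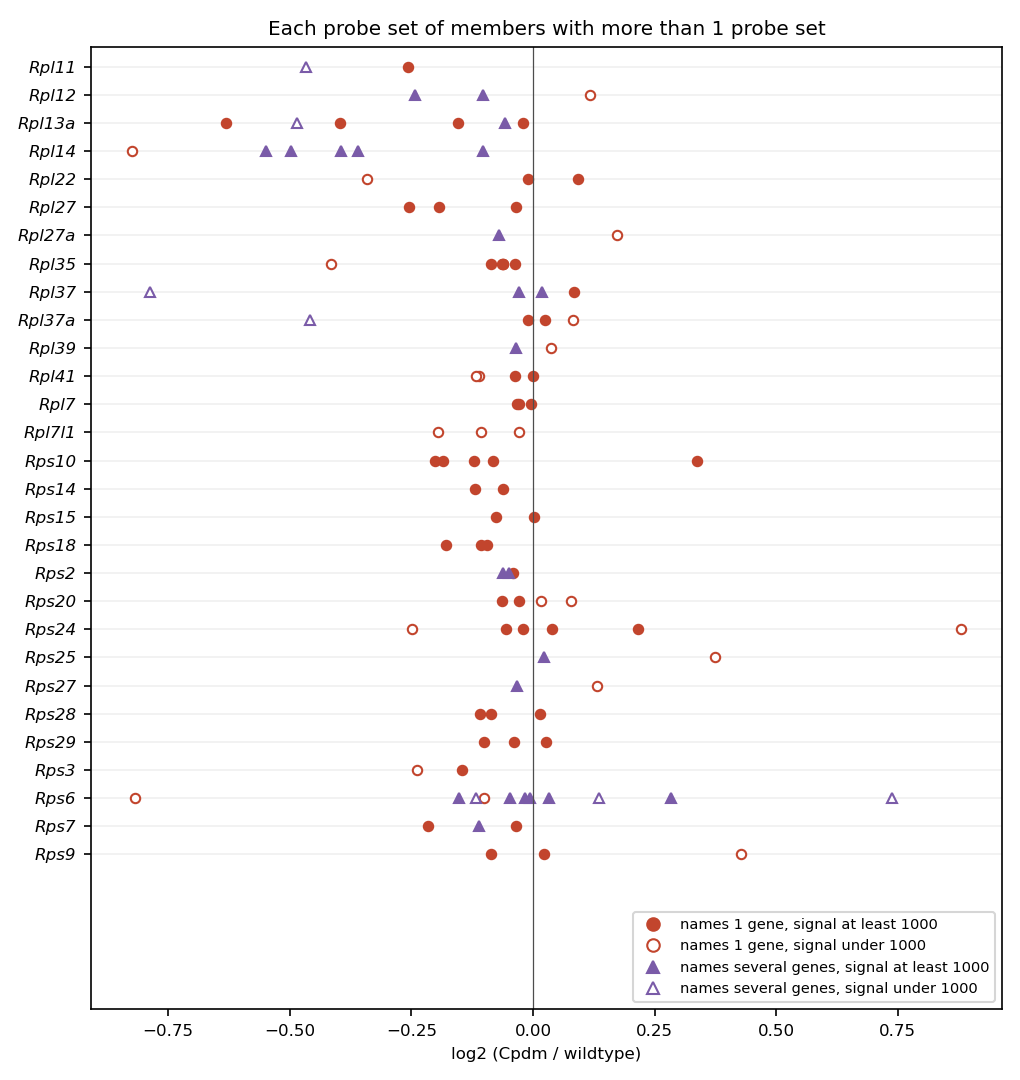
Log2 ratio of Cpdm over wildtype for every probe set that exceeds the floor in each array, for members with more than 1 such probe set; circles name 1 gene, triangles name several, and open symbols have a mean signal under 1000. Most filled symbols lie near 0, with those of Rpl14 and Rpl13a reaching -0.55 and -0.63, and the widest values are open symbols, such as Rps24 at 0.88.

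Many ribosomal proteins are named only beside a pseudogene or predicted gene, and their ratios were of similar size. A further 110 probe sets name a ribosomal protein together with other genes, and through them 27 more core ribosomal proteins can be seen. By the brightest probe set of each, 26 of the 27 lay within the spike-in range and the median log2 ratio was -0.07. The exception was Rpl29 at 3674 against 2969, a log2 ratio of 0.31, but its 3 other probe sets lay between -0.21 and -0.06. The lowest was Rpl17 at 3338 against 3873, a log2 ratio of -0.21. The 42 measured core members by their 1-gene probe sets and the 27 make 69. Below 0 lay 52 of the 69 (30 after quantile normalization), beside 47.6% of all measured genes with the deposited scaling. The 2 past 1.5-fold were Rpl14 and Rps6, by weak probe sets, and their brightest shared probe sets gave -0.10 and -0.05. Rps16 is not among the 69, and its shared probe sets gave log2 ratios of -0.12 and 0.02.

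Genes that build and control ribosomes were compared in the same way. Of all measured genes, 47.6% lay below 0, 5.84% were at least 2-fold higher and 5.98% at least 2-fold lower. Mitochondrial ribosomal proteins, which serve the separate ribosomes of mitochondria, were measured for 76 genes and had a median of -0.13 in log2 ratio, with 51 below 0 (55 after quantile normalization) and none past 2-fold. Mrps34, at 314 against 595, and Mrpl37, at 96.3 against 172, were lowest. Ribosome biogenesis factors had a median of -0.02 over 39 genes with none past 2-fold, and Nop56, a core protein of the particles that methylate ribosomal RNA, read 182 against 326 by one probe set and 226 against 240 by the other. Initiation factors had a median of -0.03 over 24 genes with none past 2-fold, and Eif3c read 787 against 1387. The 15 other TOP messages had a median of -0.02 with 9 below 0, 6 above and none past 2-fold. They ran from Eif3h at 1102 against 1529 to Hnrnpa1 at 645 against 382. The elongation factors among them, Eef1a1, Eef1b2, Eef1d and Eef2, lay below 0, with log2 ratios of -0.02, -0.41, -0.28 and -0.46.

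Single members of the control lists passed 2-fold, a size that 5.84% (higher) and 5.98% (lower) of all measured genes reached. Among 15 measured genes of RNA polymerase I and its factors the median was 0.04, with 9 above 0, 0 at least 2-fold higher and 2 at least 2-fold lower. Ttf1, the terminator factor, was at the floor in Cpdm and at least 3.70-fold lower by one probe set, but another read 29.7 against 7.74. Taf1a, a subunit of the promoter selectivity factor, read 28.1 against 58.4. Among 16 genes of mTORC1 and TOP translation control the median was -0.07, with 2 at least 2-fold lower. Eif4ebp1, the translation repressor that mTORC1 inactivates, read 861 against 1913, and its other probe sets read 538 against 998 and 44.0 against 112. Max, the dimer partner of Myc, read 81.4 against 238, while Myc itself read 165 against 157 and Mtor 154 against 161. Among 10 genes of ribosome quality control and nucleolar stress the median was 0.04 (-0.11 after quantile normalization), with 5 above 0 and 5 below. Nemf was 2.55-fold higher at 455 against 179 and Pelo, which rescues stalled ribosomes, 3.35-fold lower at 30.0 against 100.5. Mdm2 read 665 against 468, whereas Cdkn1a of the same list read lower in Cpdm, at 1870 against 2273.

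**Figure D4:**
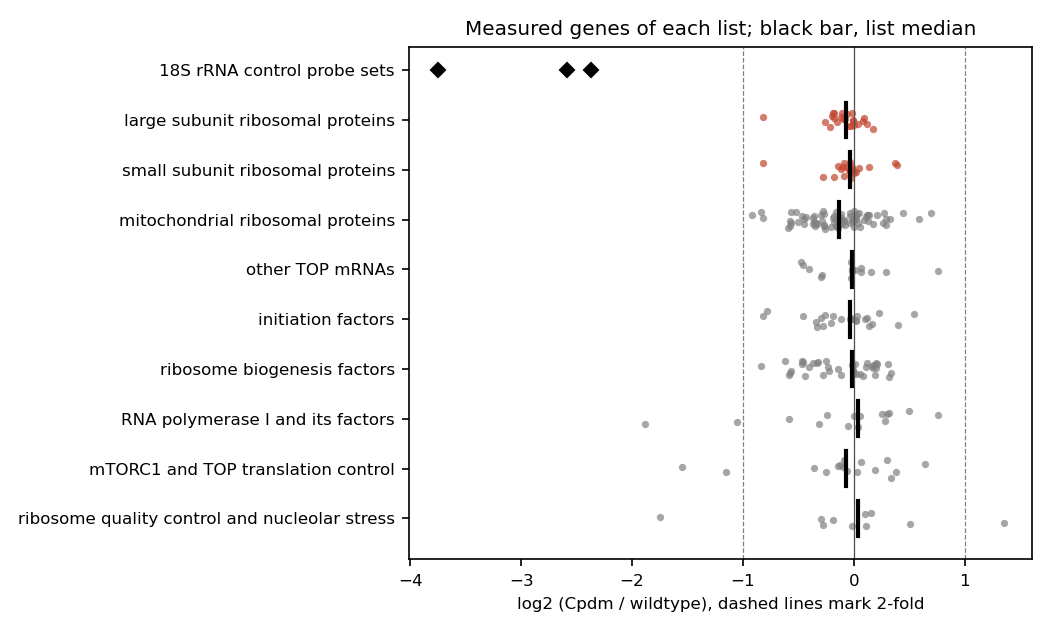
Log2 ratio of Cpdm over wildtype for the measured genes of 9 lists (points; black bars are list medians; red, ribosomal protein members) and the 3 controls for 18S ribosomal RNA (diamonds). The ribosomal protein points lie between -0.82 and 0.38 and the 18S controls at or below -2.37.

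Signals of cell type markers differed alongside these small ratios. Osteoblast markers summed to a signal of 4933 in Cpdm and 14955 in wildtype, with 8 of 8 measured markers lower in Cpdm. Ibsp alone read 3159 in Cpdm and 4130 in wildtype. Macrophage markers summed to 23394 and 18032, with 9 of 10 higher in Cpdm. Markers of proliferating cells summed to 2621 and 1960, with 6 of 7 higher. Neutrophil markers gave weak signals that summed to 143 and 222, with 5 of 5 measured markers lower in Cpdm. Adipocyte markers summed to 2132 and 2510, with 3 lower and 2 higher. Few markers were measured for erythroid cells (2), endothelial cells (2) and B and T cells (3). Of all measured genes, 47.6% lay below 0 and 52.4% above. The part of these marker differences in the ribosomal protein values was not tested. In such unsorted cultures fewer cells of a type and less RNA per cell cannot be told apart.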

How the data were processed

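Total RNA of 2 cultures was labelled from 5 µg per sample and hybridised to Affymetrix arrays, per the labels' protocols. The authors deposited intensity values on a linear scale for 45101 probe sets, and the submitters' processing notes list GCOS 1.4 and MAS5, which scales each array by 1 factor. The trimmed mean signal (2% off each end) was equal in both columns. The sources used here give neither detection calls nor background settings.

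Of 45037 non-control probe sets, 34945 carried 1 gene in the platform annotation, 932 carried several and 9160 were unlisted. All 100 member probe sets matched a current gene record with no change of symbol. Signals below the 40th percentile of an array were set to that floor, and a gene's value is that of whichever of its probe sets was brightest (mean log2 signal). Genes were counted at fixed sizes of 2-fold and 1.5-fold. Robust SD is the scaled median absolute deviation. Genes named were those past 2-fold, the 8 highest and 8 lowest ratios, the 6 highest and 6 lowest signals, the stalk genes, the 4 largest gaps between probe sets, 8 symbols picked for known roles (of which Rpl5 and Rps27a have no 1-gene probe set) and 2 genes per list. Others named, such as Rpl29, Rpl17, Mdm2, Cdkn1a, Myc and Mtor, were chosen after their values were seen. The members and lists were chosen with earlier results of these data known. The counting was tested on simulated data. Python 3.11.15, numpy 2.4.6, pandas 2.3.3 and matplotlib 3.10.9 were used. The number of arrays limits the precision. Alternatives covered the floor, the scaling, the choice of probe set, a pseudocount and the 3 members that are not core ribosomal proteins.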

Additional observations from a re-analysis of the deposited data

How the results depend on the processing

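No member passed 2-fold in either direction under any of 11 alternatives, and the member median stayed between -0.09 and 0.02. At 1.5-fold, 1 member was higher without a floor (Rps16, below the floor) and 1 without _s_at and _x_at probe sets (Rps24), and 1 member was lower with the mean over probe sets. Quantile normalization gave 25 members above 0 and 20 below. The cause was not tested. The median of the RNA polymerase I list was 0.25 with the weakest probe set above the floor, from 0.04. The median of the list of ribosome quality control and nucleolar stress turned from 0.04 to -0.079 with the weakest probe set above the floor and to -0.11 with quantile normalization. The 18S median was -2.46 with a pseudocount of 16. Of 161 values recomputed, 152 moved by less than the spike-in SD of 0.11 or, for counts, by at most 1.5 times. Most of the medians were smaller in size than that SD, so a change of sign could count as unmoved. The median of the other TOP messages, for example, turned from -0.02 to 0.04 with quantile normalization and was counted so. The 152 also hold the counts of members past 2-fold, which were 0 throughout. The spike-in SD is a spread over single hybridisation control probe sets, so it does not measure the uncertainty of the member median. That median changed from -0.05 to 0.02 with quantile normalization of the same 2 arrays. No paired analysis was possible because each genotype has 1 array.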

Other observations

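Relatives that the rule left out were not uniform. Rps27l, a paralogue of Rps27 that is induced by p53, read 3354 in Cpdm against 2635 in wildtype, 3329 against 3090 and 3185 against 2892 by its 3 probe sets, with log2 ratios of 0.35, 0.11 and 0.14. Rps27 itself had values of 0.13 by a weak probe set and -0.03 by the bright one. Rpl39l, a paralogue of Rpl39, read 990 against 1352, a log2 ratio of -0.45. Rps4l read 211 against 284, a log2 ratio of -0.43, beside -0.09 for Rps4x. Rpl3l, a muscle paralogue of Rpl3, lay below the floor in both arrays. Fau, which encodes the small subunit protein eS30 as a fusion with a ubiquitin-like protein, read 2961 against 3056.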
